A study of Homo sapiens with 18 samples.

Results

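Ribosome footprints of replicatively senescent IMR90 cells were compared with those of young cells, in the 6 Ribo-seq libraries of these groups out of 18 libraries in the series. The libraries were chosen by assay and condition as given in the sample titles, and no measured value entered the choice. IMR90 cells are primary human fetal lung fibroblasts. The young group was proliferating at low passage, the old group had been passaged serially into senescence, and each had 3 replicates, grown as independent cultures per the study's methods. Another 3 libraries, from low-passage cells treated with the small molecule inflachromene (ICM), a binder of HMGB1 and HMGB2, entered the same fit and are used only where they show what is particular to old cells. All cells were lysed with cycloheximide, which holds ribosomes in place, and part of each lysate went to mRNA-seq of poly(A)-selected RNA. Since all libraries come from a single fibroblast line, the comparison cannot be read as one of several donors, and the passage number and the time in culture cannot be told apart from senescence.

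Ribo-seq sequences the mRNA fragments that translating ribosomes protect from nuclease, so a gene's reads in its coding sequence (CDS) reflect how much mRNA there is and how densely ribosomes occupy it. Replicative senescence is a lasting arrest of the cell cycle that follows telomere shortening. It is known for loss of proliferation genes, of lamin B1 and of HMGB proteins, for induction of the CDK inhibitors p21 and p16, and for a changed secretion of matrix and signalling proteins.

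Both groups held 1 library that stood apart. Young replicates 1, 2 and 3 held 54421, 685061 and 1718521 CDS reads, and old replicates 1, 2 and 3 held 1672807, 54708 and 583798. In CPM (CDS reads per 1000000 of the library's, with edgeR's TMM scaling), 1 read was worth 19.8 in young replicate 1 and 20.1 in old replicate 2, against 0.64 to 2.05 in the other 4 libraries. A count of 0 allows up to 3 reads, or 59.4 and 60.4 CPM in the 2 shallow libraries, a limit that covers counting error only. The CDS held 34.4% of the reads of young replicate 1 (95% interval 34.1% to 34.6%, exact binomial) and 15.0% of those of old replicate 2 (14.9% to 15.1%). It held 84.4% and 88.8% in the other young libraries and 77.8% and 54.7% in the other old ones. Non-coding RNA took 52.5% of reads in young replicate 1, where the spliceosomal RNAs RNU5B-1 and RNU5A-1 alone took 14.3% and 13.7%, and 45.2% in old replicate 2. In old replicate 2, 16.5% of reads lay in 5′ UTRs. The mean CDS share was 49.2% ± 31.8 in old and 69.2% ± 30.2 in young (SD, n = 3 each), a difference smaller than the spread between replicates (exact permutation test, two-sided p = 0.5, where the smallest possible p is 0.1). Over CDS levels, Spearman's rho across genes was 0.966 between young replicates 2 and 3 and 0.959 between old replicates 1 and 3, and 0.77 to 0.81 between a shallow library and the others of its group.

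**Figure D1:**
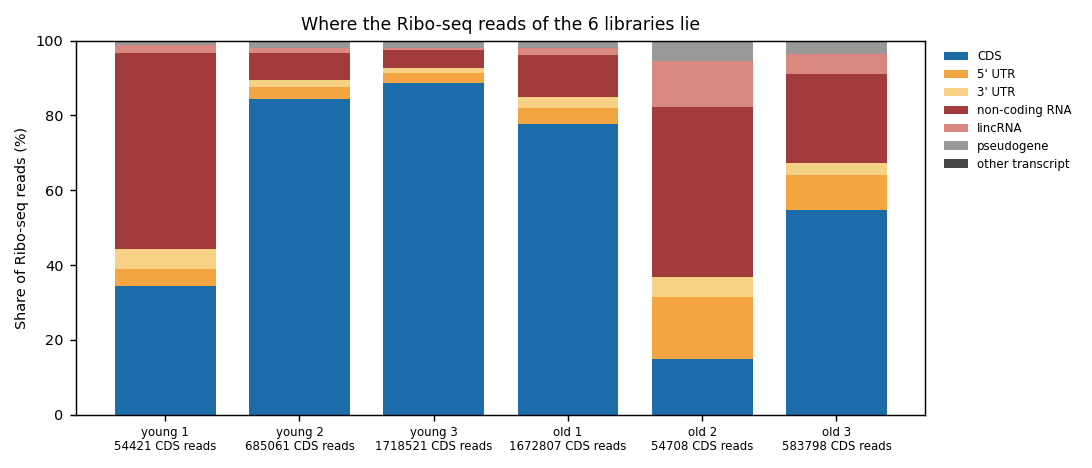
Share of the Ribo-seq reads of each library (y axis, %) by the region they were assigned to, for the 3 young and 3 old libraries (x axis, with CDS reads under each). The CDS takes 34.4% of young replicate 1 and 15.0% of old replicate 2, the 2 libraries with the fewest CDS reads, and over 54% of the others.

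Genes specific to 1 condition were used to see whether the shallow libraries follow their labels. Those of old cells separated them, those of young cells did not, and those of ICM cells were raised in both. Sets were taken from mRNA-seq alone, as genes with at least 20 CPM in 1 condition and at least 20 times the level of each other condition. The 5 genes of the old set (KISS1, ANKRD1, L1CAM, CLSTN2 and TMEM178B) summed to 39.6, 25.6 and 33.1 CPM of footprints in young replicates 1, 2 and 3, and to 1158, 805 and 1275 in old replicates 1, 2 and 3. The 2 genes of the young set (AEBP1 and SLC7A14) summed to 39.6, 86.3 and 97.4 CPM in young and to 0.711, 40.2 and 6.16 in old, with 2 reads in each shallow library. The 13 genes of the ICM set, among them HMOX1, SPP1 and several aldo-keto reductases, summed to 951, 125 and 127 CPM in the young libraries and to 170.0, 1147 and 160.1 in the old ones, against 5617 to 9416 in the ICM libraries. In the mRNA-seq of the same lysates the same 13 genes gave 79.7, 89.5 and 87.3 CPM in young and 54.5, 57.9 and 68.5 in old. In mRNA-seq the lysates of the 2 shallow libraries did not lie above the others of their groups in these genes. The raised footprint level of the ICM set rested on 48 reads in young replicate 1 and 57 in old replicate 2. Its part in the results was not tested beyond leaving these libraries out.

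**Figure D2:**
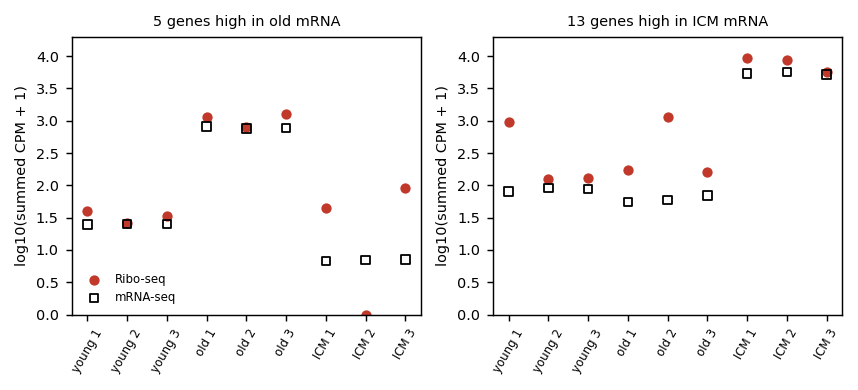
Summed level, log10(CPM + 1) on the y axis, of the 5 genes high in old mRNA (left) and the 13 genes high in ICM mRNA (right) in each lysate (x axis), in Ribo-seq (filled) and mRNA-seq (open squares). In the left panel all 3 old libraries lie above all 3 young ones; in the right panel young replicate 1 and old replicate 2 lie at 951 and 1147 CPM of footprints, above the other young and old libraries.

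The label of the cells was checked with marker genes. Of 11 fibroblast markers, 10 had enough reads to be tested, and their summed level was 47071 to 50161 CPM in young and 36576 to 47447 in old. COL1A1, COL1A2 and VIM led the list, and S100A4 had too few reads. Markers of other cell types were low or absent. The leukocyte genes PTPRC and CD3E, the endothelial genes PECAM1 and KDR and the epithelial genes CDH1, SFTPB and SFTPC had no read in any of the 6 libraries. The 9 epithelial markers summed to 767 to 891 CPM in young and 483 to 790.2 in old, nearly all of it KRT8 and KRT18. The 6 endothelial markers, which were nearly all TEK, summed to 39.6 to 78.3 CPM in young and 93.9 to 221 in old, and TEK lost its call without the shallow libraries. The 6 leukocyte markers summed to 12.8 to 59.4 CPM in young and 20.1 to 37 in old, the 5 erythroid markers to 0 to 11.2 and 18.5 to 21.3, and the 4 smooth muscle and pericyte markers to 416 to 505 and 492 to 560.3, with none of the 3 tested called.

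Old cells differed from young cells in 1685 of 4643 genes tested (36.3%, edgeR's quasi-likelihood test, Benjamini-Hochberg adjusted p under 0.05). Of these, 896 (19.3% of those tested) were higher in old and 789 (17.0%) lower, and 417 and 372 of them by more than 1 on the log2 scale. Without the 2 shallow libraries more genes had enough reads, and 2154 of 8113 (26.5%) were called, 1148 higher (14.2%) and 1006 lower (12.4%). Of the 1685 genes, 1541 kept call and sign without the shallow libraries, 848 higher and 693 lower, and none changed sign. The log2 changes of these 1541 genes moved by a median of 0.05. In 1805 genes tested (38.9%) the 3 old and 3 young libraries did not overlap in CPM. The count depended on the tool: DESeq2 called 530 genes, all among the 1685, with 296 higher (6.4%) and 234 lower (5.0%). It also depended on the deeper libraries: without young replicate 2 or 3 it was 516 or 528, and without old replicate 1 or 3 it was 657 or 813. The p-values measure the spread between these cultures of a single line. In mRNA-seq of the same lysates, 8709 of 13173 genes were called (66.1%), 4271 higher (32.4%) and 4438 lower (33.7%).

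The genes with the largest changes were named by rule: the 12 largest rises and falls among genes called with and without the shallow libraries that had at least 100 CDS reads over the 4 deeper ones. The groups did not overlap in 23 of these 24 genes, the exception being CORIN, and DESeq2 called 22 of them, all but CENPF and KIF20A (adjusted p 0.108 and 0.087). Over all genes tested, 38.9% did not overlap. The 24 were chosen for their change in these same libraries, so both counts are favoured by the choice and are not separate support. mRNA-seq tested 22 of the 24 genes and called 21 with the same sign.

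**Figure D3:**
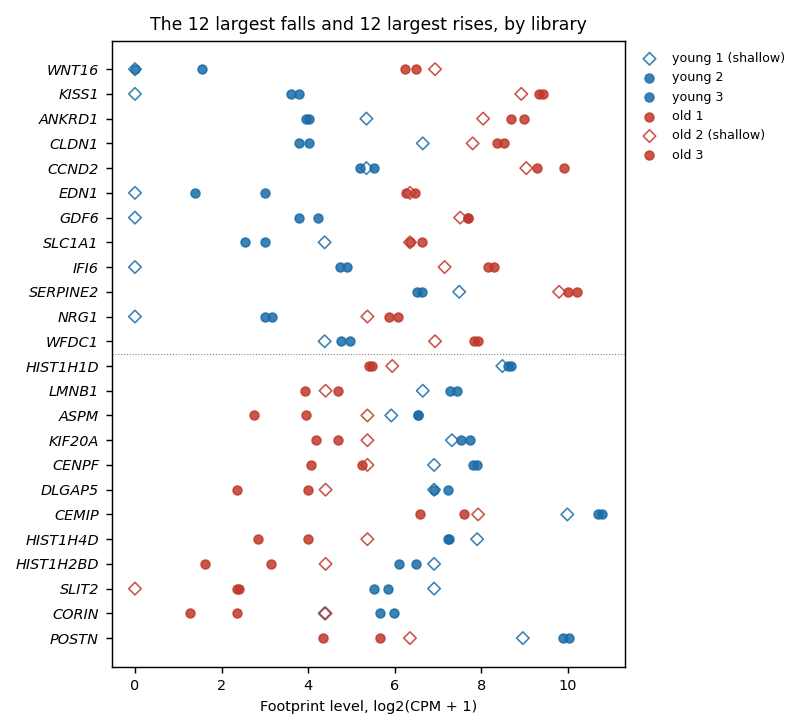
Footprint level of the 24 genes with the largest changes, log2(CPM + 1) on the x axis, in each library (blue young, red old; open diamonds are the 2 shallow libraries). KISS1 lies at 0 to 12.7 CPM in young and 483 to 686 in old, and POSTN at 495 to 1044 in young and 19.2 to 80.5 in old; CORIN alone has overlapping groups.

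Among the 12 rises were several secreted proteins. KISS1, the precursor of the kisspeptins, had 0, 11.2 and 12.7 CPM in young replicates 1 to 3 and 639, 483 and 686 in old. WNT16, a WNT ligand, had 0, 0 and 1.91 CPM in young and 88.9, 121 and 73.9 in old. Every old library lay above every young one for both, in the shallow libraries too. With 3 WNT16 reads in young and 167 in old, the ratio of the pooled rates was 64.4 (95% interval 21.7 to 315, exact, counting error only). KISS1 rose by 5.71 on the log2 scale (SE 0.29, edgeR adjusted p 5.92e-17). EDN1, the vasoconstrictor endothelin-1, had 0, 1.60 and 7.0 CPM in young and 87.5, 80.5 and 75.9 in old. GDF6, a ligand of the BMP family, had 0, 17.6 and 12.7 CPM in young and 206, 181 and 205 in old. NRG1, a ligand of ERBB receptors, had 0, 7.99 and 7.0 CPM in young and 66.1, 40.2 and 57.5 in old. For all 3 ligands every old value lay above every young one. For NRG1 the 0 of young replicate 1 allows up to 59.4 CPM, which is above its values in old replicates 2 and 3. SERPINE2, an inhibitor of serine proteases, stood at 178, 89.5 and 97.4 CPM in young and 1028, 885 and 1174 in old, or 3.42 on the log2 scale (SE 0.23, edgeR adjusted p 5.22e-14). WFDC1, a small secreted protein with a whey acidic protein domain, had 19.8, 30.4 and 26.1 CPM in young and 225, 121 and 240.1 in old.

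The other rises of the 12 were in proteins that are not secreted. CCND2, cyclin D2, had 39.6, 44.7 and 35.6 CPM in young and 621, 523 and 952 in old (log2 4.23, with SE 0.25 and edgeR adjusted p 4.50e-15). ANKRD1, a nuclear ankyrin repeat protein that is a target of YAP, had 39.6, 14.4 and 15.3 CPM in young and 412, 262 and 505 in old. Both were high in all 3 old libraries. CLDN1, a tight junction protein, had 99.0, 12.8 and 15.3 CPM in young and 329, 221 and 365 in old, and its young value was highest in the shallow library, where it rested on 5 reads. SLC1A1, a glutamate transporter, had 19.8, 4.79 and 7.0 CPM in young and 81.1, 80.5 and 98.5 in old. IFI6, an interferon-induced protein of mitochondria, had 0, 28.8 and 25.5 CPM in young and 282, 141 and 309.9 in old.

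The largest of the 12 falls was in POSTN. This gene of the matricellular protein periostin, had 495, 943 and 1044 CPM in young and 19.2, 80.5 and 49.3 in old (log2 -4.87, with SE 0.30 and edgeR adjusted p 7.76e-15). CEMIP, which takes part in hyaluronan breakdown, had 1010, 1656 and 1763 CPM in young and 94.6, 241 and 193 in old. For both genes the shallow young library was the lowest of its group and the shallow old library the highest. CORIN, a membrane-bound serine protease, had 19.8, 49.5 and 62.4 CPM in young and 1.42, 20.1 and 4.10 in old, and the overlap came from 1 read in each shallow library. SLIT2, a secreted guidance cue, had 119, 55.9 and 45.2 CPM in young and 4.27, 0 and 4.10 in old. LMNB1, lamin B1 of the nuclear lamina, had 99.0, 153 and 172 CPM in young and 14.2, 20.1 and 24.6 in old, which is -3.18 on the log2 scale (SE 0.32, edgeR adjusted p 1.03e-09). The 4 mitotic genes of the list were DLGAP5, CENPF, KIF20A and ASPM, whose log2 changes lay between -3.40 and -3.27. The remaining 3 were histone genes.

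Footprints on the genes of chromosome segregation fell nearly as a group. Of 40 mitosis and kinetochore genes listed, 31 were tested, 30 were called lower and none higher, with a median log2 change of -2.03 against 0.02 over all genes tested. The exception was BUB3, a checkpoint protein, at 119, 209 and 230.3 CPM in young and 158, 322 and 170.3 in old (edgeR adjusted p 0.297). Without the shallow libraries 36 of 39 tested were called lower, with a median of -2.01, and DESeq2 called 17 of 31. The read filter admits a gene with enough reads in a single group. Members could therefore enter through young cells alone, which favours a fall, and the counts do not describe untested members. MKI67, the proliferation marker Ki-67, had 178, 182 and 117 CPM in young and 17.1, 40.2 and 28.7 in old. Genes of DNA replication moved less far. Of 29 listed, 14 passed the same filter and were tested, and 13 were called lower, with a median of -1.22 (6 by DESeq2). The MCM helicase subunit MCM7 had 277, 224 and 189.6 CPM in young and 58.3, 121 and 53.4 in old, and the sliding clamp PCNA had 238, 230.1 and 235 in young and 108, 80.5 and 144 in old. FEN1, a flap endonuclease, was the 1 tested member not called.

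Every histone gene tested was called lower. Symbols beginning HIST mark the clustered histone genes, most of which are made in S phase to package new DNA. The files hold 74 of them, 48 were tested, and all 48 were called lower in old, with a median log2 change of -2.43 and a range from -3.59 to -1.10. The groups did not overlap in 46 of the 48. The read filter admits a gene with enough reads in a single group, so genes could enter through young cells alone, which favours a fall. HIST1H2BD, for example, had 67.1 to 119 CPM in young, 2.05 to 20.1 in old and 0 to 29.6 in ICM. The count does not describe the histone genes left out. Without the shallow libraries 60 of 61 tested were called lower with the same median of -2.43, and DESeq2 called 42 of 48 lower. Together the 48 genes took 0.858%, 0.806% and 0.786% of CDS reads in young replicates 1 to 3 and 0.161%, 0.194% and 0.131% in old. All 5 classes took part. The 4 linker histone H1 genes had a median of -2.70, the 15 H2A genes -2.28, the 4 H2B genes -2.41, the 12 H3 genes -2.79 and the 13 H4 genes -2.29. HIST1H1B, which encodes a linker histone, had 713, 695 and 654 CPM in young and 86.0, 121 and 103 in old, and HIST1H1D had 357, 408 and 391 in young and 43.4, 60.4 and 41.0 in old.

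Many histone genes are near copies, so it matters whether a footprint can be told apart. The first 30 coding bases, about the length of a footprint, of 5 of the H4 genes are shown with their position in GRCh37, as the GENCODE annotation gives the coding sequence. Capitals mark bases that differ from the most frequent base at that position over 12 H4 genes with a coding sequence of 309 bases.
HIST1H4C (chr6:26104176-26104205, plus strand): atgtctggTcgcggcaaaggcggaaaAggC
HIST1H4D (chr6:26189275-26189304, minus strand): atgtctggccgcggTaaGggcggaaagggt
HIST1H4H (chr6:26285698-26285727, minus strand): atgtctggccgTggTaaaggTggaaaAggt
HIST1H4J (chr6:27791903-27791932, plus strand): atgtctggccgcggcaaaggcggGaagggt
HIST1H4K (chr6:27799276-27799305, minus strand): atgtctggccgcggcaaaggcggGaagggt
Outside 2 identical pairs, any pair of the 12 H4 genes differed at 30 to 65 of the 309 bases. The shown stretches of HIST1H4J and HIST1H4K are the same, as are their whole coding sequences, and their counts in the files are the same in every library. This was the case for 4 pairs of tested histone genes, which are therefore each 1 measurement. HIST1H4C, HIST1H4D and HIST1H4H share 0%, 3.21% and 0% of their 30-base stretches with the coding sequence of another gene.

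The histone genes that can be told apart fell too. In 17 tested genes at most 5% of 30-base stretches were shared, all 17 were called lower by edgeR and by DESeq2, and their median was -2.54, against -2.38 in the 27 genes with more sharing. No coding sequence was matched for the other 4. HIST1H4D had 238, 149 and 151 CPM in young and 14.9, 40.2 and 6.16 in old (log2 -3.53, with SE 0.34 and edgeR adjusted p 3.71e-10). HIST1H4C had 317, 289 and 289.5 CPM in young and 65.4, 80.5 and 45.2 in old (-2.29, SE 0.25, edgeR adjusted p 3.90e-09). HIST1H4H, with the smallest fall of the H4 genes, had 139, 245 and 247 CPM in young and 91.0, 101 and 67.7 in old (-1.50, SE 0.24, edgeR adjusted p 6.27e-06). HIST1H2BD had the largest fall of the histone genes, from 119, 67.1 and 89.1 CPM in young to 7.82, 20.1 and 2.05 in old, and shares 37.5% of its 30-base stretches.

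The mRNA of the same lysates gave the opposite sign for histone genes and the same sign for the other proliferation genes. Replication-dependent histone mRNAs end in a stem-loop in place of a poly(A) tail, whereas poly(A) selection preceded the mRNA-seq. Of the 48 histone genes, 26 were also tested in mRNA-seq, where 23 were called higher in old, with a median of 2.04 against -2.16 for their footprints. The mRNA-seq values are those of the poly(A)-selected part only, and the signs come from separate fits of each assay. Mean mRNA-seq levels of these 23 genes were low. They ran from 0.124 (HIST4H4) to 16.5 CPM (HIST1H2AC) in young, and from 0.494 (HIST4H4) to 64.0 CPM (HIST1H1C) in old. HIST1H3E, for example, had 0.144 CPM in young and 1.14 in old. Of 1663 genes called in footprints and tested in mRNA-seq, 1506 were called there with the same sign, 118 were not called and 39 had the opposite sign, and 23 of the 39 were histone genes.

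**Figure D4:**
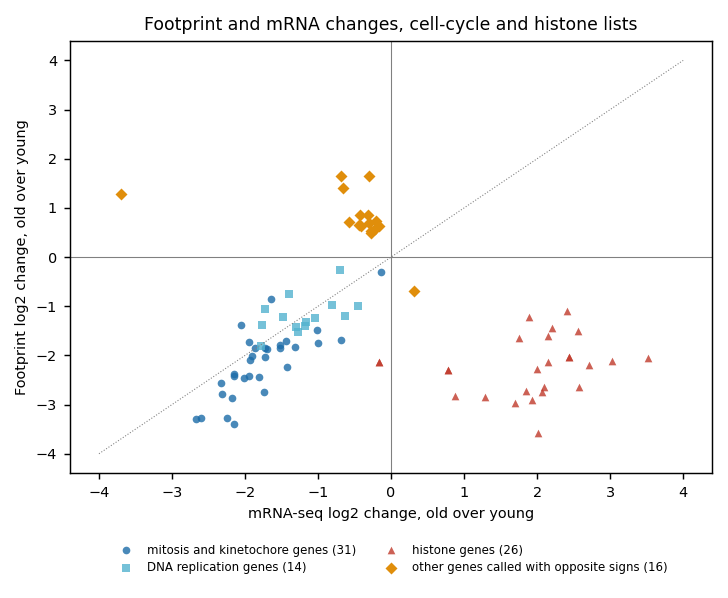
Log2 change of footprints (y axis) against that of mRNA-seq (x axis), old over young, for mitosis and kinetochore genes, DNA replication genes, histone genes and the 16 other genes called with opposite signs; the dotted line marks equal changes. The 26 histone genes have a median of -2.16 in footprints and 2.04 in mRNA-seq, while the mitosis genes are lower in both.

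Of the other 16 genes with opposite signs, 15 had higher footprints and lower mRNA in old. Those with at most 5% of shared stretches included both ferritin chains, which store iron. FTL had 772, 198 and 199 CPM in young and 634, 1187 and 798 in old (log2 1.65, with SE 0.28 and edgeR adjusted p 1.73e-05), against -0.30 in mRNA-seq (adjusted p 9.60e-04). FTH1 had 337, 225 and 151 CPM in young and 311, 302 and 291 in old (0.63, SE 0.23, edgeR adjusted p 0.0305), against -0.41 in mRNA-seq. In both, the shallow young library was the highest of its group and brought the groups to overlap, and without the shallow libraries the changes were 1.87 and 0.76. RANBP1, a cofactor of the GTPase Ran, had 357, 245 and 219.5 CPM in young and 338, 1670 and 833 in old (1.64, SE 0.32, edgeR adjusted p 1.22e-04), against -0.69 in mRNA-seq. Its old values spread nearly 5-fold, with the highest in the shallow library. DESeq2 called none of these 3 in footprints (adjusted p 0.183, 0.363 and 0.0565). The 3 genes were chosen after their values were seen.

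Of 24 HMG proteins, lamins, cohesin subunits and silencing factors listed, 20 were tested, 14 called lower and 1 higher, with a median of -1.0, and DESeq2 called 6 lower. HMGB1, which bends DNA and also acts as an alarm signal outside the cell, had 515, 439.5 and 396 CPM in young and 158, 181 and 115 in old (log2 -1.57, with SE 0.21 and edgeR adjusted p 3.29e-07). HMGB2 had 59.4, 195 and 140.0 CPM in young and 29.2, 0 and 22.6 in old (-2.57, SE 0.32, edgeR adjusted p 7.27e-08). The cohesin subunits SMC3 and RAD21, the maintenance DNA methyltransferase DNMT1 and the heterochromatin proteins CBX3 and CBX5 were among those called lower. The member called higher was HMGA2, at 99.0, 55.9 and 54.7 CPM in young and 123, 80.5 and 92.4 in old. Its log2 change was positive (0.94, SE 0.28, edgeR adjusted p 0.00885), its groups overlapped, and the call was lost with DESeq2 and without any 1 of the 4 deeper libraries. HMGA1, among the 5 not called, had a log2 change of -0.19 (edgeR adjusted p 0.469).

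Of 14 CDK inhibitors, D-type cyclins and partners listed, 8 were tested, and CCND1, CCND2, CCND3, CDK6, CDKN1A and CDKN2A were called higher and CDK4 lower. DESeq2 called 5 of them higher and none lower. CCND1 had 1228, 700.0 and 719.6 CPM in young and 3213, 2455 and 3735 in old (log2 1.99, with SE 0.19 and edgeR adjusted p 5.38e-10). CDK6, a kinase partner of the D-type cyclins, had 19.8, 65.5 and 98.6 CPM in young and 272, 282 and 314 in old. CDKN1A, which encodes p21, had 614, 361 and 312 CPM in young and 1018, 684 and 733 in old (1.20, SE 0.21, edgeR adjusted p 2.00e-05). CDKN2A, the locus of p16, had 99.0, 57.5 and 64.9 CPM in young and 198, 80.5 and 170.3 in old (1.49, SE 0.26, edgeR adjusted p 2.42e-05). All 4 were higher in old on average, and CDKN2A overlapped through its 5 and 4 reads in the shallow libraries and was not called by DESeq2 (adjusted p 0.0706). Of the p53 targets, 12 of 24 were tested, with a median of 0.43. GDF15, TP53I3, TNFRSF10B and PHLDA3 were called higher (33.3%, against 19.3% of all genes) and PLK2 lower (8.3%, against 17.0%). Without the shallow libraries 6 of 20 tested were called higher and 1 lower, with a median of 0.29. TP53I3 lost its call with DESeq2 and without any 1 of the 4 deeper libraries, and DESeq2 called 2 members higher and 1 lower.

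Proteases and their inhibitors were more often called higher than lower, and few cytokines had enough footprints to be tested. Of 22 matrix proteases and inhibitors, 17 were tested, 10 called higher and 1 lower, with a median of 0.82, and DESeq2 called 7 higher. PLAT, tissue plasminogen activator, had 495, 395 and 426 CPM in young and 2850, 1630 and 2904 in old (log2 2.6, with SE 0.20 and edgeR adjusted p 1.32e-12). TIMP3, an inhibitor of metalloproteinases, had 852, 641 and 656 in young and 3250, 2213 and 3243 in old. The member called lower was MMP2, a gelatinase. MMP3 was called higher on 4 reads in young and 24 in old, and lost its call with DESeq2 and without any 1 of the 4 deeper libraries. Of 31 cytokines, chemokines and growth factors in the files, 8 were tested. ANGPTL4, a secreted inhibitor of lipoprotein lipase, rose from 297, 149 and 176 CPM to 752, 583 and 722. PTX3 was called higher and HGF lower, with log2 changes of 0.53 and -0.56, and both lost their calls with DESeq2 and without any 1 of the 4 deeper libraries.

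Of 28 tested members of the collagen list, 10 were called higher (35.7%) and 8 lower (28.6%), against 7 and 6 by DESeq2. Grouped by role after the values were seen, 7 of 15 collagen chains were called lower and 1 higher, with a median of -0.40, and of 13 processing and cross-linking proteins 9 were called higher and 1 lower, with a median of 0.80. COL15A1 had 456, 374 and 407 CPM in young and 54.0, 80.5 and 61.6 in old (log2 -2.78, with SE 0.24 and edgeR adjusted p 1.86e-11). COL3A1 and COL6A3 fell by 0.83 and 0.86 on the log2 scale. PLOD1, a lysyl hydroxylase, had 416, 433 and 461 CPM in young and 1247, 1187 and 1311 in old (1.5, SE 0.17, edgeR adjusted p 1.77e-08). P4HA2, a subunit of prolyl hydroxylase, had 158, 239.7 and 246 CPM in young and 692, 543 and 731 in old, and the cross-linking enzyme LOX had 1466, 1422 and 1623 in young and 2777 to 3075 in old. The lower protein of this group was PCOLCE, an enhancer of procollagen cleavage, at 614, 289 and 309 CPM in young and 76.1, 101 and 82.1 in old. Among elastic fibre, basement membrane and matricellular proteins, 8 of 31 tested were called higher and 9 lower (6 and 4 by DESeq2). These were 25.8% and 29.0%, against 19.3% and 17.0% of all genes. THBS1, thrombospondin-1, had 3367, 3906 and 4203 CPM in young and 11675, 9778 and 13246 in old, and CCN2 had 2278, 1902 and 2056 in young and 6397, 4789 and 6935 in old.

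In the TGF-beta, activin and BMP list, 6 of 15 tested were called higher (40%) and 3 lower (20%), against 4 and 0 by DESeq2. Over all genes tested these shares were 19.3% and 17.0%, so the share lower was near that of all genes. INHBA, the activin A subunit, had 0, 32.0 and 32.5 CPM in young and 169, 161 and 181 in old, and the receptor TGFBR2 had 79.2, 87.9 and 112 in young and 481, 382 and 499 in old. TGFBR1, SMAD4 and GREM1 were called lower. In the IGF list, 5 of 13 tested were called higher (38.5%) and 1 lower (7.7%), against 4 and 0 by DESeq2. IGFBP3 and IGFBP7, secreted binding proteins, had log2 changes of 2.79 (SE 0.20) and 2.72 (SE 0.18). IGFBP7 had 753, 596 and 627 CPM in young and 4613, 3259 and 4491 in old. In the WNT list, 6 of 12 tested were not called. WNT5A, WNT5B, WNT16, DKK3 and SFRP1 were called higher (41.7%) and ROR1 lower (8.3%). ROR1, a receptor, lost its call with DESeq2 and without any 1 of the 4 deeper libraries, and DESeq2 called 4 members higher and none lower. Among the guidance cues, 7 of 14 tested were called higher (50%) and 3 lower (21.4%), against 3 and 2 by DESeq2. The share lower was near the 17.0% of all genes, and NRP1 and NTN4 were beside SLIT2 among the falls. Of 25 contractile proteins tested, 12 were called higher (48%, 7 by DESeq2) and MYH10, a non-muscle myosin, lower. TAGLN had 3209, 2899 and 2718 CPM in young and 6916, 5352 and 8637 in old. Of 14 tested YAP and TAZ genes, 5 were called higher (35.7%) and 1 lower (7.1%), against 5 and 0 by DESeq2.

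Immune response genes rose in part. Of 33 interferon-stimulated genes, 12 had enough reads, and ISG15, IFI6, IRF1, IFITM1, IFITM2 and IFITM3 were called higher (50%, against 19.3% of all genes). IRF1, a transcription factor, lost its call with DESeq2 and without any 1 of the 4 deeper libraries, and DESeq2 called 3 of the list higher. IFI16, a sensor of DNA, was called lower, from 158, 189 and 186.4 CPM in young to 48.4, 101 and 69.8 in old (log2 -1.68, with SE 0.26 and edgeR adjusted p 3.67e-06). In MHC class I presentation, HLA-B, HLA-C, HLA-E, TAP1 and TAP2 were called higher (45.5%) and ERAP1 lower (9.1%) among 11 tested. DESeq2 called 3 higher and none lower, and TAP2 lost its call with it and without young replicate 3 or old replicate 1. HLA-C had 238, 176 and 191 CPM in young and 501, 423 and 371 in old, and shares 21.9% of its 30-base stretches with other genes.

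Genes of the translation machinery were more often called lower than higher. All 79 cytosolic ribosomal protein genes were tested, 24 were called lower and 2 higher, with a median of -0.38. RPS23 had 317, 566 and 575 CPM in young and 272, 402 and 219.6 in old, where the groups overlapped. DESeq2 called 6 of the 79 lower (7.6%, against 5.0% of all genes). Of 43 translation factors 16 were called lower and none higher, with a median of -0.41, and of 25 nucleolar ribosome biogenesis genes 10 lower and none higher, with a median of -0.54. DESeq2 called 2 lower in each of these lists (4.7% and 8%), which is near its 5.0% of all genes. Without the shallow libraries 11 of 44 translation factors were called lower and 2 higher. Of the 22 aminoacyl-tRNA synthetase genes, 13 were called lower and none higher, with a median of -0.70, and DESeq2 called 7. WARS, which charges tryptophan tRNA, had 693, 663 and 701 CPM in young and 283, 181 and 275 in old. ATF4 targets and serine synthesis genes were called lower in 11 of 19, with a median of -0.61 (5 by DESeq2). ASNS, asparagine synthetase, fell from 139, 205 and 209 CPM to 41.2, 60.4 and 57.5, and PHGDH, the entry enzyme of serine synthesis, from 614, 497 and 521 to 139, 201 and 189. Chaperones followed, with 9 of 22 lower and BAG3 higher (5 and 0 by DESeq2). HSPD1, the mitochondrial chaperonin HSP60, had 832, 959 and 1037 CPM in young and 402 to 427 in old. Nuclear transport factors were called lower in 11 of 19 (6 by DESeq2), among them the exportin XPO1, and higher in RANBP1.

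Metabolic lists went in several directions. Of 20 tested genes of glycolysis and glucose uptake, 14 were called higher and 1 lower, with a median of 0.62, and DESeq2 called 7 higher. The glucose transporter SLC2A1 had 535, 355 and 378 CPM in young and 1668, 1569 and 1948 in old (log2 2.17, with SE 0.20 and edgeR adjusted p 1.40e-10). LDHB, a lactate dehydrogenase subunit, went the other way, from 1070, 972 and 1021 to 496, 543 and 562 CPM. Lysosomal genes were called higher in 13 of 24 and lower in none, with a median of 0.63, and DESeq2 called 3 of them. CTSD, the protease cathepsin D, had 357, 377 and 347 CPM in young and 906, 765 and 942 in old. The respiratory chain had 3 of 52 called higher and 6 lower, shares below those of all genes, and DESeq2 called none (5 at an unadjusted p under 0.05, against 16 by edgeR). The proteasome had 1 of 34 higher and 6 lower (17.6%, against 17.0% of all genes). Cholesterol and fatty acid synthesis had 5 of 21 higher (23.8%) and 1 lower, and ER folding and translocation 7 of 26 higher (26.9%) and 1 lower. These shares lie near the 19.3% of all genes called higher. DESeq2 called 1 proteasome gene higher, 2 genes of each of the other lists higher, and none of the 3 lists' members lower. Among NRF2 targets and pentose phosphate enzymes, 4 of 22 were called higher (18.2%) and 6 lower (27.3%), against 0 and 4 by DESeq2. NQO1, a quinone reductase, had 772, 636 and 649 CPM in young and 165, 583 and 236 in old, with the highest old value in the shallow library. The summed level of this list was also higher in the shallow library of each group, at 11805 CPM against 8496 and 8710.2 in young and 10603 against 7208 and 7762 in old.

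**Figure D5:**
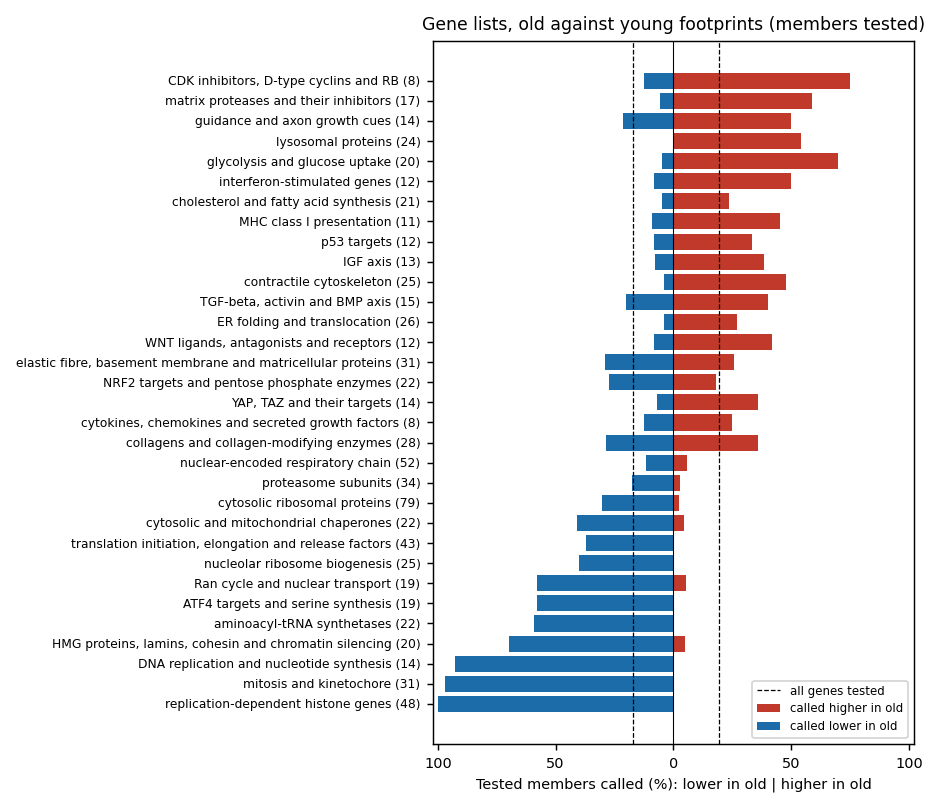
Share of the tested members of each gene list called higher (right, red) or lower (left, blue) in old than in young footprints, in %, with the number tested in brackets; lists are ordered by their median log2 change and the dashed lines are the shares over all genes tested, 19.3% and 17.0%. All 48 histone genes and 30 of 31 mitosis genes are called lower, and 14 of 20 glycolysis genes are called higher.

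The most footprinted genes were largely the same in both groups. COL1A1 took the largest mean share of CDS reads, 1.82% ± 0.09 in young and 1.45% ± 0.29 in old (SD, n = 3 each), and its log2 change was -0.23 (SE 0.20, edgeR adjusted p 0.38). FN1, fibronectin, took 0.756% ± 0.145 in young and 1.16% ± 0.205 in old, a change of 0.72 in log2 units (SE 0.16, edgeR adjusted p 8.83e-04). THBS1, PKM and TAGLN entered the 10 highest in old, where COL6A3, ACTG1 and ACTB left them. THBS1 took 0.351% ± 0.036 of CDS reads in young and 0.993% ± 0.108 in old. Per 1000 bases of coding sequence the order changed, and IGFBP5, an IGF binding protein with a CDS of 816 bases, had the highest level of these genes in young, at 13095 CPM per 1000 bases, and GAPDH in old, at 12290. IGFBP5 and EEF1A1, an elongation factor, did not pass the test between groups (edgeR adjusted p 0.131 and 0.0771), and EEF1A1 was called lower without the shallow libraries (0.0146).

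The comparison of old with ICM cells shows which of these values differ between old cells and young cells given ICM, and was tested directly in the same fit. It called 623 of 4643 genes (13.4%), 269 higher in ICM (5.79%) and 354 lower (7.62%). Of the 12 genes with the largest rises in old cells, 10 were called lower in ICM than in old cells. The 12 were chosen on the same old libraries, so the choice itself favours a lower ICM value. For the falls it likewise favours a higher ICM value. KISS1 was lower in ICM by 6.04 on the log2 scale (adjusted p 2.65e-12, edgeR), CLDN1 by 5.10 and WFDC1 by 4.52. SLC1A1 and NRG1 were not called different, with changes of -0.26 and 0.62 (edgeR adjusted p 0.756 and 0.408). Of the falls, POSTN, SLIT2 and CEMIP were higher in ICM than in old, by 3.02, 4.75 and 1.23, and the other 9 were not called. The mitosis list had 1 of 31 tested members called lower and none higher in ICM against old, and the histone list 1 of 48 higher. The median log2 changes of these lists were -0.75 and -0.46, against -0.02 over all genes tested. The contractile list had 16 of 25 called lower in ICM than in old, and all 22 NRF2 targets and pentose phosphate genes were called higher. The read filter could admit members through the group where they are high, which favours both counts. Both lists were also chosen with earlier results of these data known. The ICM libraries held 46239 to 225041 CDS reads.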

How the data were processed

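Ribosome footprints and poly(A) mRNA were sequenced from the same lysates of IMR90 cells. The authors deposited, per library, estimated counts by gene for the 5′ UTR, CDS, 3′ UTR and non-coding classes; the submitters' processing notes name STAR 2.6.0c, featureCounts, DESeq2, deepTools and GRCh37, without giving roles. CDS counts were rounded and tested with edgeR 4.0.16 (R 4.3.3; TMM scaling, filterByExpr, quasi-likelihood test, two-sided, Benjamini-Hochberg over all tested genes) in 1 fit of the 9 Ribo-seq libraries, with an adjusted p of 0.05 as threshold. The fit was repeated without young replicate 1 and old replicate 2. For mRNA-seq the UTR and CDS counts were summed. DESeq2 1.42.0, limma 3.58.1 with quality weights, other scalings, filters and thresholds, thinning and leaving out each library served as alternatives. The scripts were tested on simulated data.

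Named genes were the 12 largest rises and falls, the 10 most abundant in each group, up to 4 members per list and markers the study names; other members are named to complete a count. Members and the 33 gene lists were chosen with earlier results of these data known. The mitochondrially encoded genes were not analysed here, and the values of a few named genes are not reported here. A gene's shared sequence is the share of 30-base stretches of its canonical GENCODE coding sequence (GRCh37) found in another gene's. CDS reads per library are given with the results, and intervals cover counting error only.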

Additional observations from a re-analysis of the deposited data

Results flagged for a closer look

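In 10 named genes, footprints moved one way in old cells and the other way in ICM-treated cells, both against young, and ICM and old differed directly in the same fit (edgeR). Over all 4643 genes tested, 49 had this pattern, 37 of them higher in old, and the 10 are those that were also named by rule. Both comparisons use the same young libraries. The differences given are log2 changes of ICM minus old.

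Contractile and matrix genes that rose in old cells fell in ICM. TAGLN, an actin-binding protein of contractile cells, changed by 1.27 in old and -2.61 in ICM, a difference of -3.88 (adjusted p 7.10e-14). CALD1 and TPM1, which bind actin filaments, differed by -2.38 and -2.24, with changes of 1.07 and 0.88 in old. TIMP3 changed by 2.12 in old and -1.68 in ICM (difference -3.80), and THBS1 by 1.59 and -0.53 (difference -2.12). INHBA changed by 2.46 in old and -3.23 in ICM, a difference of -5.68 (adjusted p 3.02e-07) that rests on 1 ICM read. PTX3 and HMGA2 differed by -2.46 and -3.09, and their rises in old did not hold with DESeq2. The HMGA2 difference rests on 4 ICM reads.

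SLIT2 and NQO1 went the other way. SLIT2 changed by -3.61 in old and 1.15 in ICM (difference 4.75, adjusted p 3.71e-07). Against young, its rise in ICM had an edgeR adjusted p of 0.0453. The ICM replicates held 153, 40.9 and 114 CPM, which overlap the young values of 119, 55.9 and 45.2. NQO1 changed by -1.51 in old and 2.04 in ICM (difference 3.55).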

How the results depend on the processing

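The count of genes called in footprints (1685, 896 higher and 789 lower in old) varied with the setting. It was 530 (296 higher, 234 lower) with DESeq2, 2528 (1197 lower) with limma and quality weights, 978 (496 and 482) at a mean of at least 50 reads, 3142 (1620 and 1522) with old and young libraries alone, and 182 (108 and 74) after thinning all libraries to the shallowest. With old and young libraries alone and without the 2 shallow ones, an alternative chosen after seeing the data, it was 3769 (1940 and 1829). Leaving out 1 library gave 516 (without young replicate 2) to 2531 (without ICM replicate 2), with 273 to 1282 higher and 243 to 1344 lower. Fewer samples or genes entered several of these fits, and otherwise the cause was not tested. Whether replicate numbers pair the samples could not be settled, since counting error of the shallow libraries enters the deviations compared. Deviations of same-numbered libraries correlated at 0.0047 to 0.056, and those of differently numbered libraries at -0.061 to 0.029. Not every library correlated best with its own number. With the replicate block 653 genes were called (378 higher, 275 lower). ICM against old gave 341 with DESeq2, 194 after thinning, 1020 at an adjusted p under 0.15, 418 with the replicate block and 332 to 924 without 1 library, against 623. The mRNA-seq count fell from 8709 to 4289 with an added log2 change over 0.6, was 8791 with the replicate block, and was 8058 to 8708 without 1 library.

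No named gene reversed in 3060 comparisons with the alternatives, 265 of which lost and 24 gained the call. Of 753 list medians under alternatives, 15 lay on the other side of 0, 8 of them after a move smaller than the members' median SE (collagens in 3, smooth muscle markers in 4, YAP and TAZ genes with DESeq2). The other 7 were collagens (-0.168 thinned, -0.15 to 0.23 without 1 library, lowest without old replicate 1), guidance cues (-0.038 thinned), cholesterol synthesis (-0.11 thinned) and NRF2 targets (-0.072 at a mean of 50 reads, -0.21 to 0.31 without 1 library, below 0 without young replicate 3 or old replicate 2). The CDS share difference of -20.0 points ranged from -37.4 to -2.92 without 1 library. Of the calls, 53.2% were higher in old, 49.6% with RLE scaling.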
